A study of Mus musculus with 18 samples.

Results

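The 68 genes described here are those that the deposited gene annotation assigns to KEGG map 00010, glycolysis and gluconeogenesis, out of 55450 genes in the count table. They include every enzyme of the 10 glycolytic steps, lactate dehydrogenase, the enzymes of gluconeogenesis, the pyruvate dehydrogenase complex, and the alcohol, aldehyde and acetate enzymes that KEGG draws on the same map. RNA sequencing was performed in mouse embryonic fibroblasts (MEF) transfected with 1 of 3 plasmids. The Col1a1-miR-29b plasmid expresses the microRNA miR-29b from a rat Col1a1 promoter, the CMV-miR-29b plasmid expresses it from the CMV promoter, and the control was the empty pcDNA3 vector. At 6 h after transfection the cells were given TGF-β for 24 h or left without it, so that there were 6 groups of 3 libraries. By the study's methods both miR-29b plasmids also carried the fluorescent proteins EGFP and mRFP1. The plasmids were dosed by moles, so cells given Col1a1-miR-29b received more DNA by mass than those given CMV-miR-29b. The mass of empty vector DNA is not stated. A difference between a miR-29b plasmid and the empty vector thus cannot be told apart from an effect of the fluorescent proteins, the promoter or the DNA mass. The paper also reports far more miR-29b with the CMV than with the Col1a1 promoter in untreated cells. In differences between the miR-29b plasmids, promoter, DNA mass and miR-29b level cannot be told apart. The transfection was transient, all groups received lipid reagent and plasmid, and no untransfected cells were analysed here.

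Glycolysis splits glucose into pyruvate, and lactate dehydrogenase turns pyruvate into lactate. Most steps have several isoenzymes that differ between tissues. Hexokinase, phosphofructokinase and pyruvate kinase catalyse the steps that are in practice irreversible. Gluconeogenesis bypasses these steps with its own enzymes and is mainly a function of liver and kidney. TGF-β turns fibroblasts into matrix-producing cells, and miR-29b is known for targeting collagen mRNAs. Gapdh, a member of this pathway, was the reference in the study's RT-qPCR and Western blots.

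The mature miR-29b-3p that both plasmids express is shown first because its seed defines where it can pair with an mRNA. The plasmids carry the human miR-29b-1 gene, and the mature sequence shown is that of the mouse. This sequence, as RefSeq gives it on build GRCm38.p6 at chr6:31063025-31063047 on the minus strand, is printed with the seed, bases 2 to 8, in capitals.
mmu-miR-29b-3p: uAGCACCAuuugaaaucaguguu
The 7 bases TGGTGCT that pair with this seed occurred in the longest annotated 3′ UTR of 2 of the 52 tested pathway genes with a 3′ UTR (3.85%), against 2115 of 14321 tested genes (14.8%). The median UTR length was 680.5 bases for the pathway genes and 1088 for all genes. The 2 genes were Dlat, a subunit of pyruvate dehydrogenase, and Hkdc1, a hexokinase that was barely expressed. The site in Dlat is on chromosome 9 and the site in Hkdc1 on chromosome 10, with the 7 bases in capitals.
Dlat: gaacaggcaccTGGTGCTgcatccgcagct
Hkdc1: tctaagcatccTGGTGCTtgcttggcagtg
Dlat was not called with either plasmid. Its log2 difference from empty vector without TGF-β was 0.09 with Col1a1-miR-29b (adjusted p = 0.351, edgeR) and 0.03 with CMV-miR-29b (adjusted p = 1.0, edgeR). None of the pathway genes called in any comparison held the 7 bases in its 3′ UTR.

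The promoters of 3 genes on which the results turn are also shown, from 250 bases before to 50 bases after the RefSeq start. Hk2 and Pgk1 are textbook targets of the hypoxia-inducible factor, and Acss2 had the largest called differences among the pathway genes with over 1000 normalized counts. Capitals mark ACGTG and GCGTG, the core letters of the hypoxia response element, on either strand. The positions are chr6:82774405-82774704, minus strand, chrX:106186850-106187149, plus strand, and chr2:155517793-155518092, plus strand, all GRCm38.p6.
Hk2: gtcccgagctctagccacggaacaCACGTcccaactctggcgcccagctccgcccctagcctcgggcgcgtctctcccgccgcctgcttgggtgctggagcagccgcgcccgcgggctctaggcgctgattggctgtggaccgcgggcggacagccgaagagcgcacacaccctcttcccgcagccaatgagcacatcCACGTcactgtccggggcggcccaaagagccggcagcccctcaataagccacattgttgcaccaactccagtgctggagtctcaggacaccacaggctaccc
Pgk1: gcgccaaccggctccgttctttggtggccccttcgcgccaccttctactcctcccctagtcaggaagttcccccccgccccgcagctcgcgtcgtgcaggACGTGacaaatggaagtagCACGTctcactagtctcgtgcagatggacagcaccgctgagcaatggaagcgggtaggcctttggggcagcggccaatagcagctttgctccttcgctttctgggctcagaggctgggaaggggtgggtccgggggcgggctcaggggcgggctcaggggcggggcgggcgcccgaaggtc
Acss2: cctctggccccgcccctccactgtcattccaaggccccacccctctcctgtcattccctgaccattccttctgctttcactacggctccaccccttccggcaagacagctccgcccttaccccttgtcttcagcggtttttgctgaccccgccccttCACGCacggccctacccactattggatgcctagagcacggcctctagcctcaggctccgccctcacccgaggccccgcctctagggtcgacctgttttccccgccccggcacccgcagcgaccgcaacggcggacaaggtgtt
The Hk2 and Pgk1 promoters each held ACGTG at 2 places and no GCGTG, and the Acss2 promoter held GCGTG once and no ACGTG. Of 73 promoters listed for 57 of the 68 genes, 47 (64.4%) held either core, against 14380 of all 32851 promoters (43.8%). ACGTG alone was in 26 (35.6%, against 19.6% of all) and GCGTG in 33 (45.2%, against 32.4%). The E-box CACGTG, which contains ACGTG, was in 6 (8.22%, against 7.15%), and CAGAC, the Smad-binding core, was in 29 (39.7%, against 49.6%). Several promoters of 1 gene overlap, so these shares are descriptions and not counts of independent sites.

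The libraries held 65898017 to 80332633 counts each, of which the 68 genes took 1.91% to 2.17%. Values per library are given below as normalized counts, that is, counts scaled to a common library size of 74600000 with edgeR's TMM factors. Of the 68 genes, 53 passed the filter on low counts and were tested among 21161 genes. The other 15 never exceeded 29 counts in a library. In this text a gene is called where its Benjamini-Hochberg adjusted p over all 21161 genes in edgeR's quasi-likelihood test was under 0.05, each value has 3 libraries per group, and ± gives the SE. The study describes repeated experiments for each group without naming their cultures or days, and the p-values measure the spread between these libraries. A call said to be lost without a library refers to refits that leave out 1 library, and losses under other settings are counted separately. One library of Col1a1-miR-29b and one of Col1a1-miR-29b with TGF-β carried a replicate letter that matched no sample title, and they are called unlettered. The fibroblast markers Col1a1, S100a4 and Vim averaged 197, 171 and 109 FPKM (fragments per kilobase, scaled to library size). Pdgfra (0.888), Dcn (0.569) and Thy1 (0.0032) averaged less than 1 FPKM, and Lum was at 0 in all libraries. The summed fibroblast markers were 449 to 514 FPKM without and 599 to 772 with TGF-β. Of 5 leukocyte and macrophage markers Cd68 (mean 7.99) and Lyz2 (3.14) were over 1 FPKM, and of 5 skeletal muscle markers only Des (3.97). Of 5 epithelial markers only Krt19 was over 1 FPKM (mean 28.0), and the epithelial sum was at least 31.3 FPKM without and at most 23.7 with TGF-β. Of 4 neural markers only Tubb3 was over 1 FPKM and Sox2 was at 0, with a sum of 14.9 to 18.6 FPKM without and 24.4 to 28.3 with TGF-β. The part of these shifts in the results was not tested. In bulk RNA, fewer cells of a type and less RNA per cell cannot be told apart.

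Most glycolytic steps had 1 isoenzyme far above the others. On the FPKM scale, which allows levels to be compared between genes, the mean over 16 libraries was 893 ± 64.2 (SD) for Pgk1, 829 ± 46.4 for Ldha and 685 ± 30.7 for Pkm. Aldoa (472), Pgam1 (427), Tpi1 (426), Eno1 (243) and Gpi1 (146) followed. The place of Eno1 is less certain, since its row held 65.1% to 81.5% of the counts on its sequence. The kinases of the first and the third step were lower, with 80.1 ± 6.36 FPKM for the liver-type phosphofructokinase Pfkl, 35.9 ± 3.93 for Hk2 and 33.2 ± 3.37 for Hk1. The row named Gapdh averaged 45.6 FPKM but held only 4.65% to 11.6% of the counts on its sequence, so Gapdh is left out of this ranking. In empty vector cells Hk2 and Hk1 did not differ beyond their spread without TGF-β (34.1 ± 1.41 and 35.1 ± 2.48 FPKM, SD, n = 3), while with TGF-β Hk2 was above Hk1 (41.7 ± 1.35 and 36.6 ± 1.93 FPKM). Pgam1 and Tpi1 were at 428 ± 14.4 and 438 ± 12.6 FPKM in untreated empty vector cells, within their spread. Some isoenzymes known from other tissues were near 0. Pklr, the pyruvate kinase of liver and red cells, had a mean of 0.00191 FPKM, and the testis form Pgk2 had no count in any library. Lactate dehydrogenase B averaged 1.39 FPKM, against 829 for lactate dehydrogenase A. Of the 68 genes, 11 had a mean above 100 FPKM and 27 a mean below 1.

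**Figure D1:**
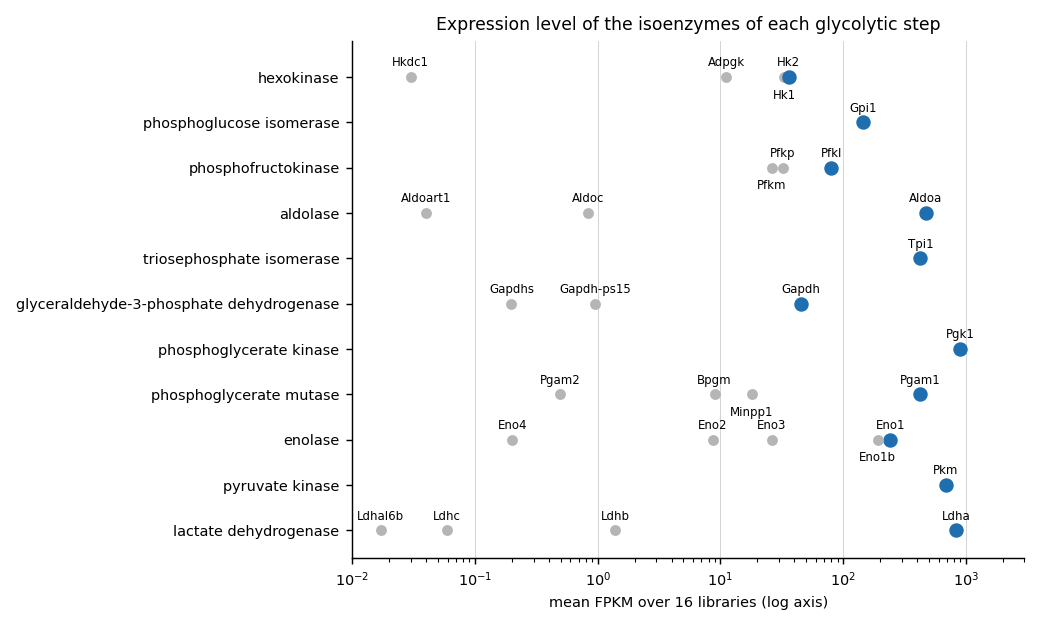
Mean FPKM over 16 libraries (log axis) of the isoenzymes of each step of glycolysis and of lactate dehydrogenase, with the highest isoenzyme of a step in blue and the others in grey. The 5 isoenzymes with a mean under 0.01 FPKM lie outside the axis and are not drawn. Pgk1 (893), Ldha (829) and Pkm (685) are the highest rows. Each step has 1 leading isoenzyme except for the close pair Hk1 and Hk2 and the rows Eno1 and Eno1b. Eno1b holds a copy of the Eno1 coding sequence at 99.39% identity, so the division of counts between these rows is uncertain. The row named Gapdh (45.6) held 4.65% to 11.6% of the counts on its sequence, so its place in the ranking is not a measurement of its level.

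Most enzymes particular to gluconeogenesis were near 0. The cytosolic phosphoenolpyruvate carboxykinase Pck1 had a mean of 0.00201 FPKM, and the fructose-bisphosphatases Fbp1 and Fbp2 had means of 0.0107 and 0.00356. The glucose-6-phosphatase G6pc had no count in any of the 18 libraries, and G6pc2 averaged 0.00212 FPKM. The counts were not tallied one by one, so no upper limit is given for G6pc, and a low level is not excluded. Only the mitochondrial Pck2 (10.1 ± 1.65 FPKM, SD, 16 libraries) and the ubiquitous glucose-6-phosphatase G6pc3 (10.3 ± 1.99 FPKM, SD) were expressed. G6pc3 held 895 normalized counts in Col1a1-miR-29b replicate d and 1281 in CMV-miR-29b replicate c, and 1743 to 2408 in the other 16 libraries, and was called in no comparison.

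With TGF-β in empty vector cells, 17.0% of the tested pathway genes were called. Of 53, 2 were higher and 7 lower, where 5.88% of all tested genes were called (1245 of 21161), 3.88% higher and 2.01% lower. Shares over all genes, here and below, were not matched for count level, and 39 of the pathway genes had a median above 1000 normalized counts. The part of count level in the excess was not tested. The median log2 fold change was -0.05 over the 53 genes and 0.00 over all genes. With Col1a1-miR-29b, TGF-β raised 2 and lowered 5 (background 4.32% called, 3.0% higher and 1.32% lower). With CMV-miR-29b it raised 2 and lowered 9 (background 4.95% called, 3.08% higher and 1.87% lower). Hk2 and Eno3 were the 2 higher genes in all 3 comparisons, which do not share libraries, and Acss2, Adh7 and Aldh9a1 were lower in all 3.

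Col1a1-miR-29b against empty vector without TGF-β gave 0 higher and 6 lower (background 6.27% called, 2.57% higher and 3.7% lower). With TGF-β it gave 4 higher and 8 lower (background 12.9% called, 5.31% higher and 7.63% lower). For CMV-miR-29b against empty vector, edgeR called none of the 53 without TGF-β (background 0.00473%, all higher) and none with it (background 0.00945%, all higher). At an unadjusted p under 0.05 there were 2 of 53 without TGF-β, where 5.46% of all genes passed, and 10 with it, where 12.0% of all passed. DESeq2 called 0 and 2 of the 53. The DESeq2 share over all genes is not given here, so these counts have no background. CMV-miR-29b against Col1a1-miR-29b gave 4 higher and none lower without TGF-β (background 1.81% called, 1.0% higher and 0.803% lower). With TGF-β it gave 1 higher and none lower (background 1.93% called, 1.02% higher and 0.912% lower).

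**Figure D2:**
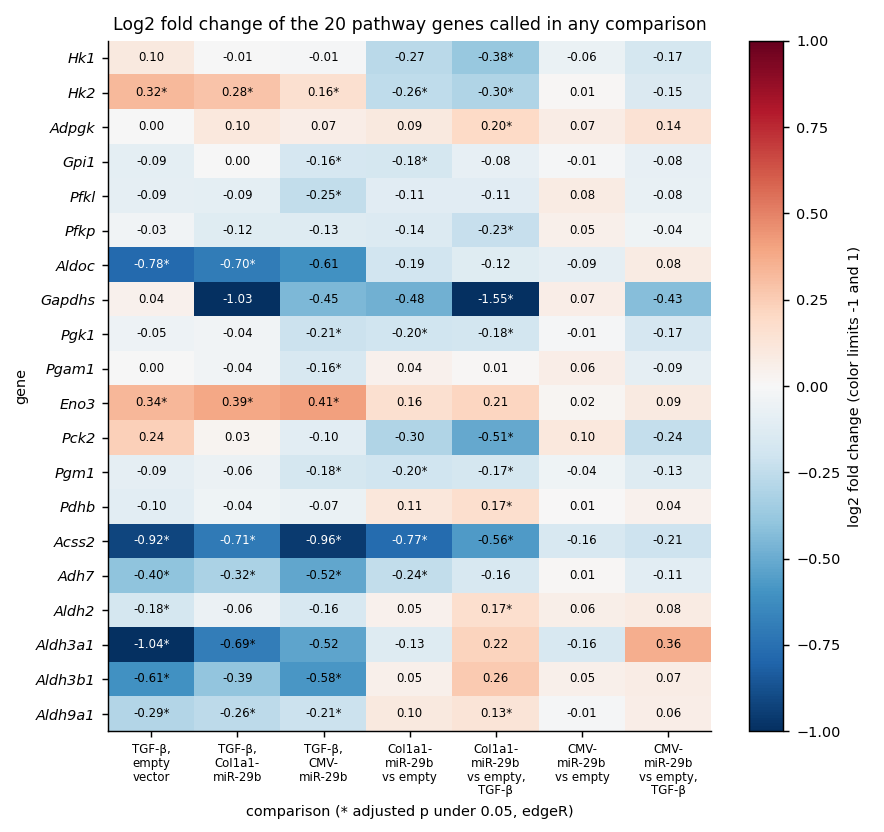
Log2 fold changes of the 20 pathway genes called in any of the 11 comparisons, for 7 comparisons (columns), in pathway order (rows). Asterisks mark an adjusted p under 0.05 in edgeR, and the colors stop at -1 and 1 while the printed values do not. Acss2 is blue in the 3 TGF-β columns and in both Col1a1-miR-29b columns, and Hk2 is red in the former and blue in the latter.

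Hk2, the inducible mitochondria-bound hexokinase that commits glucose to the cell, rose with TGF-β and was lower with the Col1a1-miR-29b plasmid. The empty vector libraries held 17674, 17110 and 16068 normalized counts, and those with TGF-β 22164, 20381 and 21148. The groups did not overlap, and the log2 fold change was 0.32 ± 0.04 (1.25-fold, adjusted p = 0.000119, edgeR). In Col1a1-miR-29b cells Hk2 went from 14553, 14122 and 13854 to 17403, 17393 and 16922 normalized counts. All 3 treated libraries were above the untreated ones there, by 0.28 ± 0.04 (adjusted p = 0.000593, edgeR). In CMV-miR-29b cells it went from 17785, 16924 and 16670 to 19002, 19550 and 18947. The groups did not overlap and differed by 0.16 ± 0.04 (adjusted p = 0.0347, edgeR), and the call was lost without any 1 of the 6 libraries other than CMV-miR-29b replicate c (adjusted p = 0.0722 to 0.167, edgeR). The response differed from that in empty vector cells by -0.16 (95% interval -0.29 to -0.04) for CMV-miR-29b, with an unadjusted p = 0.0149 and an adjusted p = 0.922 (edgeR), so the difference did not pass. For Col1a1-miR-29b the difference of responses was -0.04 (95% interval -0.17 to 0.08). Against empty vector, Col1a1-miR-29b cells had less Hk2 both without TGF-β (-0.26 ± 0.04, adjusted p = 0.00406, edgeR) and with it (-0.30 ± 0.04, adjusted p = 0.000677, edgeR). With CMV-miR-29b the difference was 0.01 without TGF-β (95% interval -0.07 to 0.1). With TGF-β it was -0.15 (95% interval -0.24 to -0.06), in the same direction as for the Col1a1-promoter plasmid, and did not pass (adjusted p = 0.199, edgeR).

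Hk1, the housekeeping hexokinase, was not called with TGF-β in empty vector cells (0.10 ± 0.08, adjusted p = 0.629, edgeR). With TGF-β it held 27672, 24664 and 27663 normalized counts with empty vector and 17651, 22374 and 21655 with Col1a1-miR-29b. The lowest empty vector library was above the highest Col1a1-miR-29b library, and Hk1 was lower by -0.38 ± 0.08 on the log2 scale (adjusted p = 0.0065, edgeR). Without TGF-β the difference was -0.27 ± 0.08 and missed the threshold (adjusted p = 0.0566, edgeR). Adpgk, which phosphorylates glucose with ADP, was higher in the same comparison. With TGF-β it held 8510, 8914 and 7979 normalized counts with empty vector and 9908, 9408 and 9835 with Col1a1-miR-29b, without overlap (0.20 ± 0.05, adjusted p = 0.0123, edgeR). Its call was lost without empty vector replicate e (adjusted p = 0.0688), Col1a1-miR-29b replicate c (0.0574) or the unlettered library (0.0539, edgeR).

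**Figure D3:**
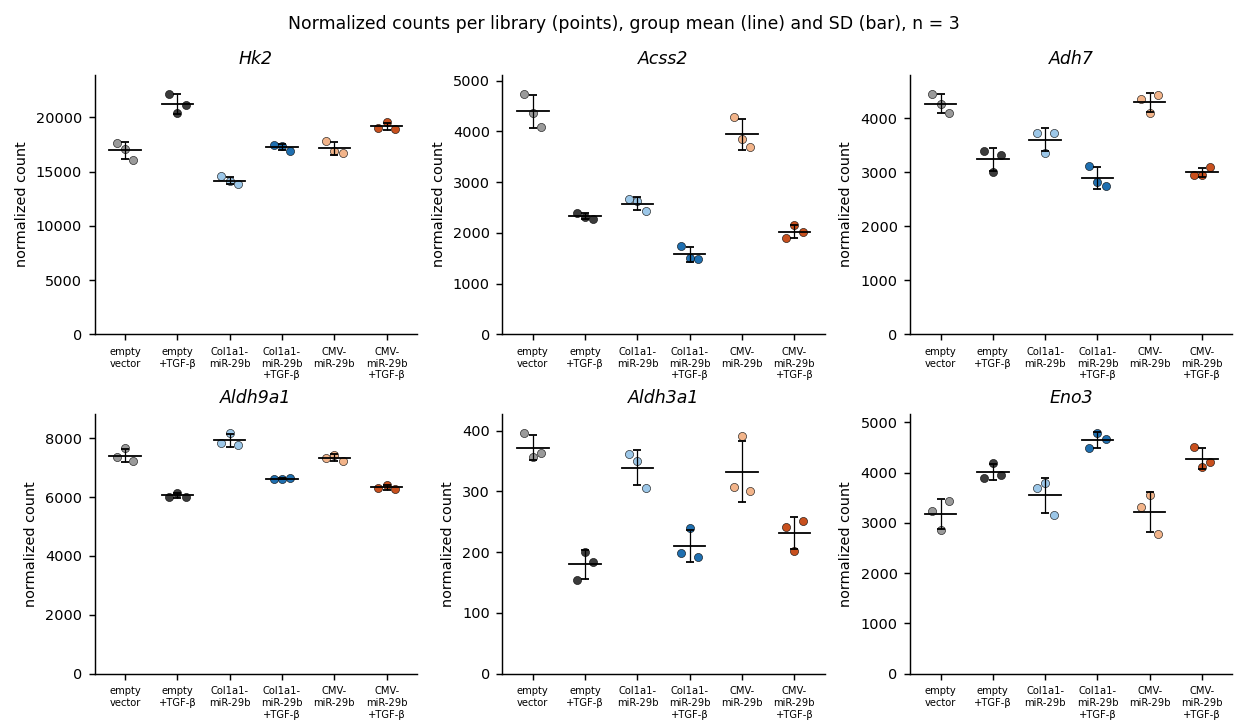
Normalized counts of Hk2, Acss2, Adh7, Aldh9a1, Aldh3a1 and Eno3 in the 18 libraries (points), with the mean (line) and SD (bar) of the 3 libraries of each group. With TGF-β, all libraries of Hk2 and Eno3 lie above and all of the other 4 genes below the untreated libraries of the same plasmid, and Acss2 with Col1a1-miR-29b (2426 to 2675) lies far below empty vector (4094 to 4742).

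The leading isoenzymes of the later steps changed little, and what passed was lower. In empty vector cells none of the 11 leading isoenzymes except Hk2 was called with TGF-β, and their log2 fold changes ran from -0.11 for Tpi1 to 0.32 for Hk2, apart from -0.29 for the row named Gapdh, which shares its sequence with many copies. In CMV-miR-29b cells 10 of the 11 were below 0 with TGF-β (median -0.15), and 4 of them fell by a called amount. Pgk1, which makes the first ATP of glycolysis, went from 187588, 171899 and 176187 to 148110, 159540 and 154554 normalized counts. These groups did not overlap, and the difference was -0.21 ± 0.04 (adjusted p = 0.00923, edgeR), and of the 6 libraries only leaving out CMV-miR-29b with TGF-β replicate c ended the call (adjusted p = 0.0633, edgeR). It was also lost with the groups compared alone (adjusted p = 0.0897, edgeR) and with limma on log2(FPKM + 1) and log2(FPKM + 0.1) (adjusted p = 0.085 and 0.0532). Pfkl went from 49549, 52171 and 46731 to 39947, 41560 and 43476 (-0.25 ± 0.05, adjusted p = 0.00356, edgeR), and this call held without each library in turn. Gpi1 (-0.16 ± 0.04, adjusted p = 0.0464, edgeR) and Pgam1 (-0.16 ± 0.04, adjusted p = 0.0297, edgeR) were also lower. Pgm1, which links glycolysis to glycogen, was lower by -0.18 ± 0.05 (adjusted p = 0.0408, edgeR), lost without any 1 of the 6 libraries except CMV-miR-29b replicate d (0.0563 to 0.199). Gpi1 was lost without any 1 of the 6 except CMV-miR-29b with TGF-β replicate e (adjusted p = 0.0545 to 0.232, edgeR), and Pgam1 without CMV-miR-29b replicate c or d, or replicate d or e with TGF-β (0.0516 to 0.146). Pkm (-0.13, adjusted p = 0.0857, edgeR) and Tpi1 (-0.15, adjusted p = 0.0533, edgeR) missed the threshold. The response in CMV-miR-29b cells was below that in empty vector cells for all 11 leading isoenzymes, with a median of -0.13. The differences ran from -0.16 for Hk2 to -0.04 for Tpi1, apart from -0.17 ± 0.39 for the row named Gapdh. Under TGF-β, CMV-miR-29b was also below empty vector for all 11 (median -0.08), with none called. None of these differences passed, and the 11 values share the same 12 libraries. Over the 53 tested pathway genes edgeR called none for either miR-29b plasmid (background 0.0% of 21161 genes), and DESeq2 called 0 for both. The number with an unadjusted p under 0.05 was 2 for the Col1a1-promoter plasmid (4.54% of all genes) and 6 for the CMV-promoter plasmid (5.34% of all genes).

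**Figure D4:**
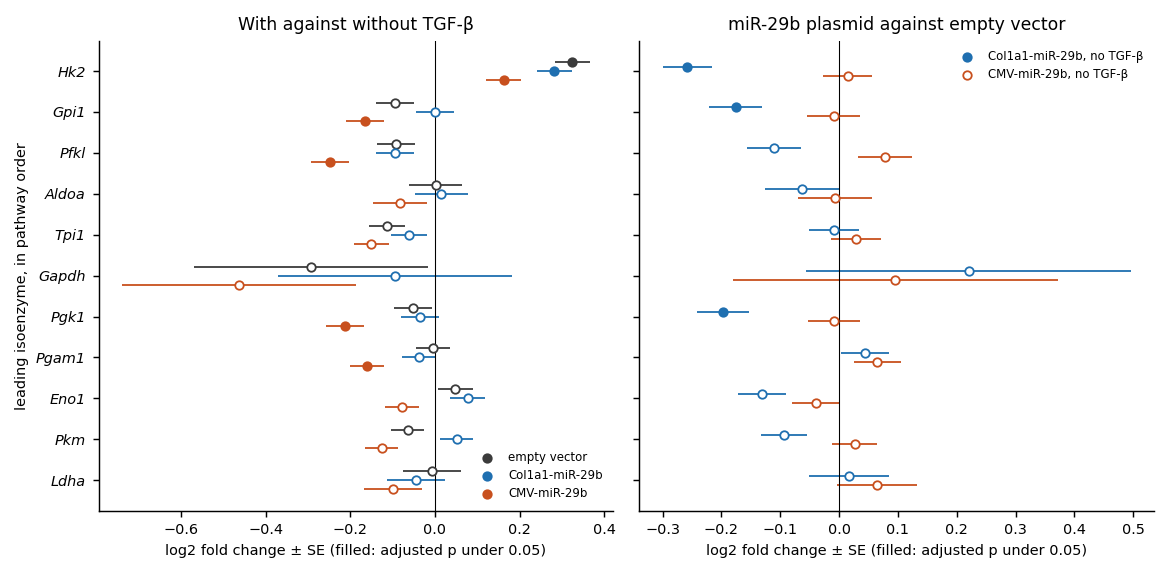
Log2 fold change ± SE of the leading isoenzyme of each step, in pathway order, for TGF-β in the 3 plasmid groups (left) and for each miR-29b plasmid against empty vector without TGF-β (right). Filled points have an adjusted p under 0.05 in edgeR. In the left panel Hk2 lies to the right of 0 and Pgk1, Pfkl, Gpi1 and Pgam1 are filled and to the left in CMV-miR-29b cells, and in the right panel Hk2, Gpi1 and Pgk1 are filled and to the left for Col1a1-miR-29b.

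With the Col1a1-miR-29b plasmid and no TGF-β, Pgk1 held 158178, 156751 and 155128 normalized counts against 186728, 176106 and 176096 with empty vector. The groups did not overlap, and the difference was -0.20 ± 0.04 (adjusted p = 0.0189, edgeR). It was lost without empty vector replicate c (adjusted p = 0.0683) or the unlettered library (0.0577, edgeR). With TGF-β the difference was -0.18 ± 0.04 (adjusted p = 0.0153, edgeR), lost without empty vector replicate c (0.063) or e (0.0563) or Col1a1-miR-29b replicate c (0.0796). Gpi1, which makes fructose 6-phosphate, was lower without TGF-β (-0.18 ± 0.04, adjusted p = 0.0313, edgeR). Pgm1 was lower without TGF-β (-0.20 ± 0.05, adjusted p = 0.021, edgeR) and with it (-0.17 ± 0.05, adjusted p = 0.0235, edgeR). The platelet-type phosphofructokinase Pfkp was lower with TGF-β (-0.23 ± 0.06, adjusted p = 0.022, edgeR), but after adding length and GC offsets to the fit the difference was -0.05 (adjusted p = 0.651, edgeR). These 4 calls were each lost without at least 3 of the 6 libraries in turn. For Gpi1 these were empty vector replicate c and each Col1a1-miR-29b library (adjusted p = 0.0577 to 0.107, edgeR). For Pgm1 without TGF-β they were empty vector replicate c, Col1a1-miR-29b replicate d and the unlettered library (0.0568 to 0.0753), and with TGF-β empty vector replicates c and e, Col1a1-miR-29b replicate c and the unlettered library (0.0593 to 0.118). For Pfkp they were empty vector replicates c and e, Col1a1-miR-29b replicate d and the unlettered library (0.0558 to 0.117). Between the miR-29b plasmids without TGF-β, Hk2 (0.27 ± 0.04, adjusted p = 0.0061, edgeR), Pfkl (0.19 ± 0.05, adjusted p = 0.0498, edgeR) and Pgk1 (0.19 ± 0.04, adjusted p = 0.0463, edgeR) were higher with CMV-miR-29b. Hk2 held without each library in turn but not with the groups compared alone (adjusted p = 0.1, edgeR), with the replicate letter as a block (adjusted p = 0.0511, edgeR) or with limma on log2(FPKM + 0.1) (adjusted p = 0.0525). Pfkl was lost without any 1 of the 6 except CMV-miR-29b replicate e (0.105 to 0.172), and Pgk1 without any 1 except CMV-miR-29b replicate d (0.0723 to 0.199). Ldha (0.02), Tpi1 (-0.01) and Aldoa (-0.06) differed from empty vector by about 1 SE or less without TGF-β.

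Among the minor isoenzymes, Eno3, the muscle-type enolase, was higher with TGF-β with each plasmid. It held 3241, 2862 and 3436 normalized counts with empty vector and 3885, 4197 and 3958 with TGF-β (0.34 ± 0.09, adjusted p = 0.0427, edgeR). The groups did not overlap, but leaving out any 1 of the 6 libraries ended this call (adjusted p = 0.0514 to 0.206, edgeR). In CMV-miR-29b cells the rise was 0.41 ± 0.09 (adjusted p = 0.0152, edgeR), lost without CMV-miR-29b replicate e (0.0795) or replicate c with TGF-β (0.068). For Col1a1-miR-29b it was 0.39 ± 0.09 (adjusted p = 0.0223, edgeR), lost without untreated replicate c, the untreated unlettered library, or treated replicate d or the treated unlettered library (0.0519 to 0.133). Aldoc, the brain-type aldolase at 0.834 FPKM, went from 327, 316 and 259 to 192, 197 and 139 normalized counts with TGF-β in empty vector cells (-0.78 ± 0.19, adjusted p = 0.0222, edgeR). That call was lost without untreated replicate c or d or treated replicate e (0.0742 to 0.116). In Col1a1-miR-29b cells Aldoc differed by -0.70 ± 0.19 (adjusted p = 0.0499, edgeR), lost without any 1 library (0.0557 to 0.203). Gapdhs, the sperm form of glyceraldehyde-3-phosphate dehydrogenase, was called lower with Col1a1-miR-29b and TGF-β (-1.55 ± 0.37, adjusted p = 0.0136, edgeR) on 11, 6.09 and 17 normalized counts against 35, 25 and 41. At these counts, and with the call lost without empty vector replicate e (0.0647) or Col1a1-miR-29b replicate c (0.0505), the size of the difference is poorly fixed.

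Gapdh itself could not be measured from its own row. Its normalized counts were 13743, 15788 and 19936 with empty vector and 14721, 11884 and 13765 with TGF-β. They were 13723, 16801 and 27096 with Col1a1-miR-29b and 14781, 25477 and 13702 with TGF-β added. With CMV-miR-29b they were 24435, 13011 and 15401, and 14098, 11900 and 12335 with TGF-β. The 3 highest values came from 3 different groups, the groups overlapped, and the highest library was 2.28 times the lowest, against a median of 1.28 over the 39 pathway genes with a median above 1000. No comparison called Gapdh. By GENCODE transcripts, 74 other genes of the table held a copy of at least 50% of its coding sequence at 95% identity or more, 70 of them pseudogenes, and these copies together held 196585 to 281020 normalized counts per library. The row named Gapdh thus took 4.65% to 11.6% of the counts on this sequence. Single copies moved as widely as Gapdh: Gm7336, with 100% identity over 1017 bases, ranged from 30504 to 93248, and Gm13394 (99.9% identity) from 1966 to 35820. Reads on near-identical copies cannot be told apart, so a division of the same reads among these rows is not a measurement of any one of them.

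Summed with its copies, Gapdh was far steadier, and the sum ranged from 210683 to 294763 (1.4-fold). In CMV-miR-29b cells the sum went from 286096, 279586 and 256162 to 210683, 229511 and 227836 normalized counts with TGF-β. The groups did not overlap, and the log2 difference was -0.31 ± 0.06 (adjusted p = 0.00622, edgeR), from a refit of the whole table with copies summed that was chosen after the data were seen. It held without each of the 6 libraries in turn (adjusted p = 0.00483 to 0.0404, edgeR), in DESeq2 (-0.30, adjusted p = 0.000501) and with scaling by total counts (-0.30, adjusted p = 0.00303, edgeR). In empty vector cells the sum went from 294763, 261148 and 260991 to 259758, 229921 and 244851. All treated libraries were below the untreated ones, but the difference of -0.17 ± 0.06 did not pass (adjusted p = 0.15, edgeR). In Col1a1-miR-29b cells it was -0.01 ± 0.06 (adjusted p = 0.971, edgeR), and Col1a1-miR-29b against empty vector without TGF-β was -0.21 ± 0.06 (adjusted p = 0.0565, edgeR). The same refit left Pgk1, Gpi1 and Pgam1 called lower with TGF-β in CMV-miR-29b cells (adjusted p = 0.0082, 0.0388 and 0.0188, edgeR).

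**Figure D5:**
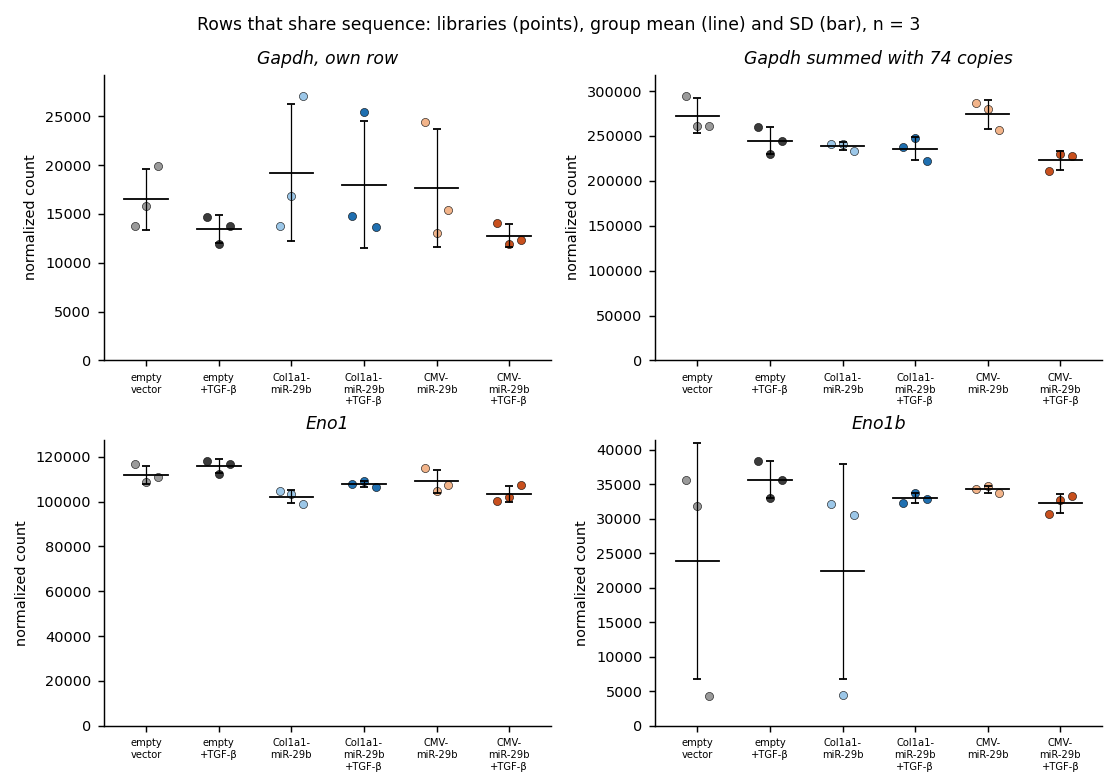
Normalized counts per library (points), with the mean (line) and SD (bar) of the 3 libraries of each group, for the row named Gapdh, for Gapdh summed with its 74 near-identical copies, and for Eno1 and Eno1b. The row named Gapdh has 3 high libraries in 3 groups while the sum does not, and Eno1b falls to 4278 and 4407 in 2 libraries while Eno1 stays between 98816 and 118128.

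Enolase had the same difficulty on a smaller scale. Eno1 held 98816 to 118128 normalized counts, and 3 genes carried near-identical copies of its coding sequence, with 25099 to 59535 in sum. The row named Eno1 thus took 65.1% to 81.5% of the summed counts. The copies were as follows. One of the 3 copies is Eno1b on chromosome 18, itself a gene of this map, with 99.39% identity. Eno1b held 30511 to 38348 normalized counts in 16 libraries but 4278 in empty vector replicate e and 4407 in Col1a1-miR-29b replicate d, while Gm4735 (99.62% identity) stayed between 18718 and 22902. The SE of Eno1b was 0.60 to 0.61 in each pairwise comparison, and it was called in none. For the other leading isoenzymes the own row held 89.7% to 91.6% of the summed counts for Pgam1, 95.4% to 96.7% for Pgk1 and at least 98.5% for Pkm, Gpi1 and Ldha. Aldoa, Tpi1, Pfkl and Hk2 had no such copy.

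None of the 6 tested genes of the pyruvate dehydrogenase complex and none of the 3 tested lactate dehydrogenases was called with TGF-β with any plasmid. Ldha held 238328, 221415 and 225177 normalized counts with empty vector and 245182, 196871 and 239130 with TGF-β, which overlapped (-0.01 ± 0.07, adjusted p = 0.981, edgeR). Ldhb, at 192, 181 and 147 against 143, 119 and 112, differed by -0.48 ± 0.16 and did not pass (adjusted p = 0.102, edgeR). With CMV-miR-29b and TGF-β it held 206, 247 and 201, above empty vector with TGF-β by 0.81 (95% interval 0.47 to 1.14). Without TGF-β the difference was 0.42 (95% interval 0.09 to 0.75). Neither passed (adjusted p = 0.103 and 0.819, edgeR), and these values were picked after they were seen. Of the 53 tested genes, 21 and 31 were above 0 in these comparisons. Pdhb, the beta subunit of the E1 enzyme, was higher with Col1a1-miR-29b than with empty vector under TGF-β (0.17 ± 0.05, adjusted p = 0.0251, edgeR), and this call was lost without any 1 of the 6 libraries except empty vector replicate d (0.0657 to 0.124). Pck2, which makes phosphoenolpyruvate in mitochondria, was lower in the same comparison (-0.51 ± 0.15, adjusted p = 0.0322, edgeR). Its groups overlapped, with 9050, 5671 and 8465 normalized counts against 6064, 5196 and 4981, and the call was lost without empty vector replicate c (0.14) or e (0.139), Col1a1-miR-29b replicate d (0.0926) or the unlettered library (0.105, edgeR).

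Acss2 turns acetate into acetyl-CoA in the cytosol and nucleus. Among the pathway genes with over 1000 normalized counts it had the largest called differences, at a level of 3.44 ± 1.26 FPKM (SD, 16 libraries). Its normalized counts were 4742, 4368 and 4094 with empty vector and 2399, 2324 and 2279 with TGF-β. The groups were far apart (-0.92 ± 0.08, 1.89-fold lower, adjusted p = 2.06e-06, edgeR). With Col1a1-miR-29b it held 2675, 2639 and 2426 without TGF-β, close to empty vector with TGF-β, and 1742, 1500 and 1493 with TGF-β (-0.71 ± 0.08, adjusted p = 4.08e-05, edgeR). With CMV-miR-29b it went from 4286, 3846 and 3690 to 1900, 2152 and 2022 (-0.96 ± 0.08, adjusted p = 1.4e-06, edgeR). Acss2 was thus lower with Col1a1-miR-29b than with empty vector, by -0.77 ± 0.08 without TGF-β (adjusted p = 0.000195, edgeR) and by -0.56 ± 0.08 with it (adjusted p = 0.00072, edgeR). For CMV-miR-29b the differences were -0.16 (95% interval -0.33 to 0.01) and -0.21 (95% interval -0.37 to -0.04), with adjusted p = 0.914 and 0.334 (edgeR). Between the 2 miR-29b plasmids Acss2 was higher with CMV-miR-29b by 0.61 ± 0.08 (adjusted p = 0.00285, edgeR), and with TGF-β by 0.36 ± 0.08 (adjusted p = 0.0393, edgeR). The latter call was lost without any 1 of the 6 libraries except Col1a1-miR-29b replicate c (0.0523 to 0.179). The TGF-β responses of Acss2 did not differ between Col1a1-miR-29b and empty vector by a called amount (0.21, 95% interval -0.03 to 0.45, adjusted p = 1.0, edgeR).

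The aldehyde and alcohol dehydrogenases that were called with TGF-β were all lower. Those not called went both ways in empty vector cells, such as Aldh1a3 (12, 11 and 19 normalized counts against 38, 50 and 32 with TGF-β) and Adh1 (34, 47 and 58 against 22, 16 and 23). Of 9 tested aldehyde dehydrogenases, 4 were called lower with TGF-β in empty vector cells (background 2.01% lower). In the Col1a1-promoter and CMV-promoter groups it was 2 of 9 (1.32%) and 2 of 9 (1.87%), and none was called higher. Aldh9a1, which oxidises aminoaldehydes on the way to carnitine and GABA, went from 7362, 7650 and 7215 to 6018, 6152 and 5998 normalized counts in empty vector cells. The spread within each group was small beside the difference (-0.29 ± 0.03, adjusted p = 5.1e-05, edgeR). It fell from 7847, 8171 and 7766 to 6612, 6608 and 6650 with Col1a1-miR-29b (-0.26 ± 0.03, adjusted p = 0.000201, edgeR) and from 7336, 7443 and 7222 to 6304, 6415 and 6256 with CMV-miR-29b (-0.21 ± 0.03, adjusted p = 0.00121, edgeR). Aldh3a1, an aldehyde detoxifying enzyme best known from cornea and stomach, went from 396, 357 and 363 to 155, 201 and 184 in empty vector cells. That 2.06-fold decrease (-1.04 ± 0.15, adjusted p = 0.000309, edgeR) was the only called change of at least 2-fold with TGF-β among the pathway genes, with any plasmid. In Col1a1-miR-29b cells the change was -0.69 ± 0.15 (adjusted p = 0.0115, edgeR), lost without untreated or treated replicate c or the treated unlettered library (0.0562 to 0.0677). In CMV-miR-29b cells it was -0.52 ± 0.15 and missed the threshold (adjusted p = 0.0543, edgeR). Aldh3b1 went from 1384, 1175 and 1295 to 785, 981 and 766 in empty vector cells (-0.61 ± 0.11, adjusted p = 0.00295, edgeR) and fell with CMV-miR-29b as well (-0.58 ± 0.11, adjusted p = 0.00472, edgeR). Aldh2, the mitochondrial acetaldehyde dehydrogenase, was lower in empty vector cells (-0.18 ± 0.04, adjusted p = 0.024, edgeR), lost without untreated replicate c or e or treated replicate e (0.0636 to 0.0876).

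Adh7, the class IV alcohol dehydrogenase that also oxidises retinol, went from 4452, 4258 and 4098 to 3387, 3002 and 3323 normalized counts with TGF-β in empty vector cells (-0.40 ± 0.07, adjusted p = 0.00119, edgeR). In CMV-miR-29b cells it fell from 4354, 4093 and 4437 to 2951, 2957 and 3096 (-0.52 ± 0.07, adjusted p = 0.000118, edgeR). In Col1a1-miR-29b cells the untreated libraries, at 3726, 3358 and 3725, were already below those of empty vector (-0.24 ± 0.07, adjusted p = 0.0387, edgeR), and TGF-β brought them to 3119, 2814 and 2741 (-0.32 ± 0.07, adjusted p = 0.00926, edgeR). The vector call was lost without any 1 of the 6 libraries except empty vector replicate e (0.0594 to 0.127), and the TGF-β call without treated replicate d (0.0517) or the treated unlettered library (0.0554, edgeR). The broadly expressed Akr1a1 (105 FPKM) and Adh5 (17.4 FPKM) were called in no comparison. Under TGF-β, Aldh2 (0.17 ± 0.04, adjusted p = 0.0226, edgeR) and Aldh9a1 (0.13 ± 0.03, adjusted p = 0.023, edgeR) were higher with Col1a1-miR-29b than with empty vector. Aldh2 lost that call without empty vector replicate e or any 1 of the Col1a1-miR-29b libraries (0.0565 to 0.108), and Aldh9a1 without any 1 library except empty vector replicate d (0.0706 to 0.0977).

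Genes that feed or control the pathway were read from the same fit, in 6 lists written down with earlier results of these data known. The list calls in this and the next paragraph were not checked without single libraries or under other settings. With TGF-β in empty vector cells none of 9 tested glucose transporters and none of 7 monocarboxylate and mitochondrial pyruvate carriers was called, where 3.88% of all tested genes were higher and 2.01% lower. The counts of the other 4 lists are to be read against the same shares. Among 11 tested transcriptional regulators of glycolysis, Myc (0.45 ± 0.10, adjusted p = 0.0162, edgeR) and Foxo1 (0.39 ± 0.07, adjusted p = 0.0038, edgeR) were higher. Of 20 hypoxia-response genes that are not glycolytic enzymes, 2 were higher and none lower. They were Vegfa, the endothelial growth factor (0.48 ± 0.06, adjusted p = 8.06e-05, edgeR), and Ddit4, an inhibitor of mTOR (0.22 ± 0.06, adjusted p = 0.0355, edgeR). Of 14 regulators of phosphofructokinase, pyruvate dehydrogenase and hexokinase, the pyruvate dehydrogenase kinase Pdk3 (-0.17 ± 0.04, adjusted p = 0.0222, edgeR) and the phosphatase Pdp2 (-0.26 ± 0.07, adjusted p = 0.03, edgeR) were lower. Of 18 genes of the side branches 3 were higher and 1 lower. The 3 belong to the hexosamine branch: Gfpt2 (0.56 ± 0.06, adjusted p = 3.55e-05, edgeR), Pgm3 (0.29 ± 0.05, adjusted p = 0.00289, edgeR) and Gfpt1 (0.16 ± 0.04, adjusted p = 0.0499, edgeR). The lower one was G6pdx, the entry enzyme of the pentose phosphate branch (-0.27 ± 0.05, adjusted p = 0.00169, edgeR). Gfpt2, an isoform of the entry enzyme of hexosamine synthesis, held 1912, 1998 and 1829 normalized counts with empty vector and 2979, 2658 and 2806 with TGF-β. The same rise was seen with Col1a1-miR-29b (0.56 ± 0.06) and CMV-miR-29b (0.57 ± 0.06).

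Hypoxia-response genes called between Col1a1-miR-29b and empty vector were lower, with 1 exception. Without TGF-β, 5 of the 20 hypoxia-response genes were lower than with empty vector and none higher, where 3.7% of all tested genes were lower (median -0.12, against 0.02 over all). With TGF-β 9 were lower and 1 higher, where 7.63% of all genes were lower and 5.31% higher (median -0.16, against 0.02). The genes named in this paragraph were chosen after their values were seen. Slc2a1, the widely expressed glucose transporter, held 28139, 26447 and 26382 normalized counts with empty vector and 23136, 23567 and 23414 with Col1a1-miR-29b (-0.21 ± 0.05, adjusted p = 0.0235, edgeR). With TGF-β the difference was -0.25 ± 0.05 (adjusted p = 0.00389, edgeR). Pdk1, the kinase that restrains pyruvate dehydrogenase, held 21376, 21775 and 21132 against 18367, 18658 and 18925 (-0.20 ± 0.03, adjusted p = 0.00439, edgeR). Hif1a itself was lower by -0.21 ± 0.05 without TGF-β (adjusted p = 0.0211, edgeR) and by -0.31 ± 0.05 with it (adjusted p = 0.00129, edgeR), and Egln1, the oxygen-sensing hydroxylase, by -0.30 ± 0.06 and -0.36 ± 0.06 (adjusted p = 0.011 and 0.00163, edgeR). Mif was the 1 higher gene of the list with TGF-β (0.22 ± 0.06, adjusted p = 0.0305, edgeR). In that comparison Tigar, a fructose-2,6-bisphosphatase, was higher (0.35 ± 0.07, adjusted p = 0.00308, edgeR), as was the lactate transporter Slc16a1 (0.21 ± 0.04, adjusted p = 0.00634, edgeR). CMV-miR-29b against empty vector gave no call in any of the 6 lists (edgeR). Only 0.00473% of all tested genes were called there without TGF-β and 0.00945% with it. Between the miR-29b plasmids, 2 of the 20 hypoxia-response genes were higher with CMV-miR-29b without TGF-β (background 1.0% higher, median 0.09). With TGF-β it was 1 of 20 (background 1.02% higher, median 0.08), and 0 were lower in either comparison.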

How the data were processed

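RNA sequencing of 18 libraries (6 groups of 3) was analysed. Per the labels and the study's methods, poly(A) libraries were made with the TruSeq stranded mRNA protocol. The authors mapped reads with HISAT2 and assembled them with StringTie, after cutadapt and FastQC. The labels name build mm9 and the methods Ensembl release 96, while 52506 of the 55450 gene coordinates were identical to GENCODE M21 on GRCm38. How counts were taken is not given in the sources used here. The deposited counts are unnormalized, 1 whole number per gene and library. Among counts of 1 to 40, 33.8% to 36.7% per library were multiples of 4, so they were not tallied one by one. The FPKM values were deposited as the authors computed them, with 0.0001 in place of 0. FPKM was used only for levels between genes, over 16 libraries, since 2 FPKM columns matched no sample title and were not used. The matching 2 count columns matched a group and were used as unlettered libraries.

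Counts were tested with edgeR 4.0.16 in R 4.3.3 (TMM factors, filterByExpr, quasi-likelihood test) in 1 fit of all 18 libraries, giving 11 comparisons with Benjamini-Hochberg adjustment over 21161 genes. The SE is the log2 fold change divided by the root of F, and 95% intervals use a t distribution with 15.1 degrees of freedom. DESeq2 1.42.0 and limma 3.58.1 served as alternatives. Genes were named by a rule: Gapdh, the isoenzyme with the highest FPKM of each step, the called genes with the largest changes in each comparison (up to 10), the gluconeogenic enzymes, and genes of related lists called with TGF-β in empty vector cells. Copies were found with blastn against GENCODE transcripts. The members, lists and this rule were chosen with earlier results of these data known. No pairing of libraries across groups by replicate letter was seen, and the letter was a block only in an alternative fit. No within-batch values could be given because the labels name no batch.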

Additional observations from a re-analysis of the deposited data

How the results depend on the processing

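Of 50 calls of pathway genes, none changed direction under the 14 other settings or with a library left out, though Gapdhs had no value with counts divided by 4 or with the filter of 10 counts. All 50 kept their call in DESeq2, 21 kept it without each library of the comparison in turn, and 29 lost it without at least 1. Hk2 in 4 comparisons, Acss2 in 5, Adh7 and Aldh9a1 in 2 each and Aldh3a1 in empty vector cells kept it under every setting run. Fitting each comparison's 6 libraries alone, which leaves fewer degrees of freedom, lost 33 of the 50 calls. The replicate block lost 27, the fit without the unlettered libraries 23, limma on log2(FPKM + 0.1) 21 and on log2(FPKM + 1) 18, and the filter of 1 count 11. Offsets for transcript length and GC content lost 6, scaling by total counts 3, summing copies 3 and robust dispersions 1. Values moved by over 1.5 times for Pfkp with the offsets and, on log2(FPKM + 1), for Acss2 with TGF-β against either other plasmid (0.22 and -0.34), Aldh3a1 (-0.66) and Aldoc (-0.37) in empty vector cells, Aldoc with Col1a1-miR-29b (-0.31) and Gapdhs (-0.23). For the other changes the cause was not tested.

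Counts of called genes moved by over 1.5 times as follows, in the order TGF-β in empty vector (9), Col1a1-miR-29b (7) and CMV-miR-29b cells (11), Col1a1-miR-29b against empty vector without (6) and with TGF-β (12), and CMV-miR-29b against Col1a1-miR-29b without (4) and with TGF-β (1). Groups compared alone gave 5, 4 and 2 with TGF-β, 2 for Col1a1-miR-29b with TGF-β, and 0 and 0 between the miR-29b plasmids. The fit with the replicate letter as a replicate block, over lettered libraries, gave 3 and 7 for TGF-β with the Col1a1-promoter and the CMV-promoter plasmid, 2 and 4 for Col1a1-miR-29b against empty vector, and 1 and 0 between the plasmids. Same-letter libraries of different groups did not deviate together (mean correlation 0.0171 over 36 pairs, against -0.0088 over 70 pairs with different letters). Single pairs ran from -0.123 to 0.15 and from -0.177 to 0.176. This check cannot show that libraries of 1 letter came from separate experiments. Without the 2 unlettered libraries the counts were 3 for TGF-β with Col1a1-miR-29b, 2 and 4 for that plasmid against empty vector, and 2 and 0 between the plasmids. With limma on log2(FPKM + 1) they were 4 for TGF-β with Col1a1-miR-29b, 2 for that plasmid without TGF-β, and 2 and 0 between the plasmids. On log2(FPKM + 0.1) they were 3, 2 without and 7 with TGF-β, and 1 and 0. DESeq2 called 10 for Col1a1-miR-29b without TGF-β, 2 for CMV-miR-29b against empty vector with TGF-β, and 8 and 3 between the plasmids. Between the plasmids, a filter of 1 count in any library gave 2 and 0, a filter of 10 counts in every library gave 2 with TGF-β, and counts divided by 4 gave 3. Shares over all genes are not given for these other settings, so their counts have no background.

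Leaving out 1 library gave ranges of 6 to 10, 3 to 7 and 6 to 13 for TGF-β in empty vector, Col1a1-miR-29b and CMV-miR-29b cells. The ranges were 2 to 10 without and 3 to 17 with TGF-β for Col1a1-miR-29b against empty vector, and 0 to 0 for CMV-miR-29b against empty vector and for both response differences. Between the miR-29b plasmids they were 2 to 8 and 0 to 1. Offsets for transcript length and GC content, and summing near-identical copies, were chosen after seeing the data and moved no count by over 1.5 times, although with the offsets the 1 call between the miR-29b plasmids with TGF-β was not Acss2 (adjusted p = 0.0533, edgeR).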
